A study of Homo sapiens with 24 samples.

Results

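The 45 genes described here are the transcription factor NRF2 (gene NFE2L2), its inhibitor KEAP1 and 43 genes of NRF2 targets and of glutathione, thioredoxin, peroxiredoxin and NADPH metabolism. They were found by name in 4 tables of mRNA sequencing from human cell lines, which list 16742 genes in all. Of the 45 genes, 44 reached a mean normalized count of 10 in at least 1 table and 41 in all 4 tables, among 11939 genes that did so.

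The 24 libraries fall into 8 cell lines with 3 libraries each, and each table covers 1 aneuploid line with its parental line. HCT116 is a colorectal carcinoma line with a modal number of 45 chromosomes, and RPE1 is a telomerase-immortalized line of the retinal pigment epithelium with a modal number of 46. HCT116 5/4 carries 4 copies of chromosome 5 and came from another laboratory. For parental HCT116 the study's methods name both that laboratory and a cell bank as the source, and HCT116* was made from the stock of the cell bank. HCT116* 8/3 c7 carries 3 copies of chromosome 8 and is a single clone. RPE1 5/3 12/3 carries 3 copies of chromosomes 5 and 12, the latter gained spontaneously, and RPE1* 21/3 carries 3 copies of chromosome 21. The asterisk marks lines with the fluorescent histone H2B-GFP, which the parental lines HCT116* and RPE1* carry as well. Except for the spontaneous gain, the added chromosomes of the lines other than HCT116 5/4 were brought in by fusing cells with microcells. For HCT116 5/4 the study's methods name only the source.

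For each gene the tables give 1 mean normalized count over the 3 libraries of the aneuploid line and the 3 of its parental line together. A line is therefore not separated from its parental line in the values below, and the comparison of each aneuploid line with its parental line, for which the tables hold only the authors' own fold changes, was not made here. The values answer another question, namely how the genes of this defence are set in HCT116 and RPE1 and how far the 2 tables of one cell type differ. Each mean was divided by the sum of all means of its table and multiplied by 1000000. The result, the level, is given in parts per 1000000 of the summed means (ppm). Each table is named by its aneuploid line, and where 4 values follow each other, the HCT116 tables come first, HCT116 5/4 before HCT116* 8/3 c7, and the RPE1 tables come last, RPE1 5/3 12/3 before RPE1* 21/3. No SD can be given for a mean of 6 pooled libraries, so the ratio between the 2 tables of one cell type is the only measure of spread. That spread holds the H2B-GFP transgene, the gained chromosomes, the clone, the parental stock and the set of libraries, which cannot be told apart. The tables were normalized separately, so levels set side by side across tables are descriptions without a test.

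The epithelial markers CDH1 and CDX2 were listed only in the HCT116 tables, and KRT19, a keratin of simple epithelia, was at 956 and 956 ppm there against 0.433 and 0.326 in the RPE1 tables. MITF and OTX2, transcription factors of the pigment epithelium, were at 62.5 and 59.5 and at 31.1 and 22.2 ppm in the RPE1 tables. In the HCT116 tables MITF was at 3.5 and 3.09 ppm and OTX2 was not listed. VIM, CDH2, COL1A1 and FN1, mesenchymal genes known in cultured RPE1, summed to 124 and 81.3 ppm in the HCT116 tables. In the RPE1 tables they summed to 24115.5 and 26187.8 ppm. The lists were not met throughout. KRT8 and KRT18, from the colorectal list, were also at 853 and 885 and at 542 and 711 ppm in the RPE1 tables, below their HCT116 levels. PMEL and SERPINF1, from the pigment epithelium list, were higher in the HCT116 tables, at 5.04 and 6.85 against 0.775 and 0.785 ppm and at 2.7 and 2.77 against 1.25 and 0.868 ppm, and CDX1 and VIL1, from the colorectal list, were listed in no table. RPE65, which defines the mature pigment epithelium, was at 0.451 and 0.243 in the RPE1 tables, below its 14.9 and 9.67 in the HCT116 tables, and TYR was listed in no table. The sums of all means lay between 18889300 and 23011800, and between 14292 and 15610 genes were listed. The depth of single libraries is not known from these means.

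NRF2 is a transcription factor that KEAP1 holds in the cytoplasm and passes on for degradation. Electrophiles and peroxides modify cysteines of KEAP1, NRF2 then accumulates and, with a small MAF protein, binds the antioxidant response element of its target genes. Their products make and recycle glutathione and thioredoxin, supply NADPH, remove peroxides, conjugate or reduce electrophiles and store iron.

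The core of the antioxidant response element, TGACNNNGC, was looked for on both strands in RefSeq promoters of GRCh38.p14, from 250 bases before to 50 bases after the start of the gene. Of the 45 genes, 38 had a promoter in the table, and 7 of these held the core (18.4%), against 13.6% of all 27305 promoters and 15.2% of the promoters of the 11939 genes above that reached 10 in all 4 tables, of which 8507 had a promoter. The 7 were GCLM, GPX2, GSTO1, GSTP1, ME1, PGD and TXNRD1. The spelling TGACTCAGC, one form of the core that also holds the AP-1 site and was searched after the first result was known, was found in 2 of 38 promoters, GSTP1 and ME1 (5.26%), against 0.564% of all promoters. HMOX1, GSR, GSS, PRDX1, PRDX6, AKR1B10 and FTH1 had no entry. One site each of the genes with that spelling and of GCLM and TXNRD1, whose levels are described below, is printed with the core in capitals. ME1 and TXNRD1 held a second match each, at 11 bases after and 8 bases before the start, which is not printed.
GSTP1: gccggcgccgTGACTCAGCactggggcgg
ME1: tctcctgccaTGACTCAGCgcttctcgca
GCLM: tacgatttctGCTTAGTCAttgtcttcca
TXNRD1: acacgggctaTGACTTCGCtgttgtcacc
The GSTP1 site lies at chr11:67583736-67583764 on the plus strand and its first capital is 66 bases before the start. The printed ME1 site lies at chr6:83431170-83431198 on the minus strand, 137 bases before the start. The GCLM site, at chr1:93909446-93909474 on the minus strand and 34 bases before the start, holds the core on the strand opposite to the gene, where it reads TGACTAAGC. The printed TXNRD1 site, at chr12:104215670-104215698 on the plus strand and 99 bases before the start, reads TGACTTCGC. A match describes these letters and not a bound site. Sequence farther from the start was not searched, so a missing match does not show that a gene lacks the element.

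The 45 genes together took 1.13, 0.949, 1.14 and 0.997% of the summed means. Per length of merged exons, between 20 and 21 of them stood at or above the 90th percentile of all genes of a table whose mean reached 10. The ferritins FTH1 and FTL, which store iron, stood at or above percentile 99.9 in every table. PRDX1, TXN, GSTP1 and PRDX5 stood at or above percentile 98.7 in all 4. At the other end, GPX3, GSTM2, AKR1C1, AKR1C2 and OSGIN1 stood below percentile 30 in at least 3 of the tables in which their mean reached 10. GPX3 reached the highest place among them, percentile 59.2, in the RPE1 5/3 12/3 table. These places depend on the length used. Merged exons came to 9116 bases for GSTM2 and 8765 for AKR1C1, and a long merged length lowers a level per length. Places with transcript lengths were not computed.

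**Figure D1:**
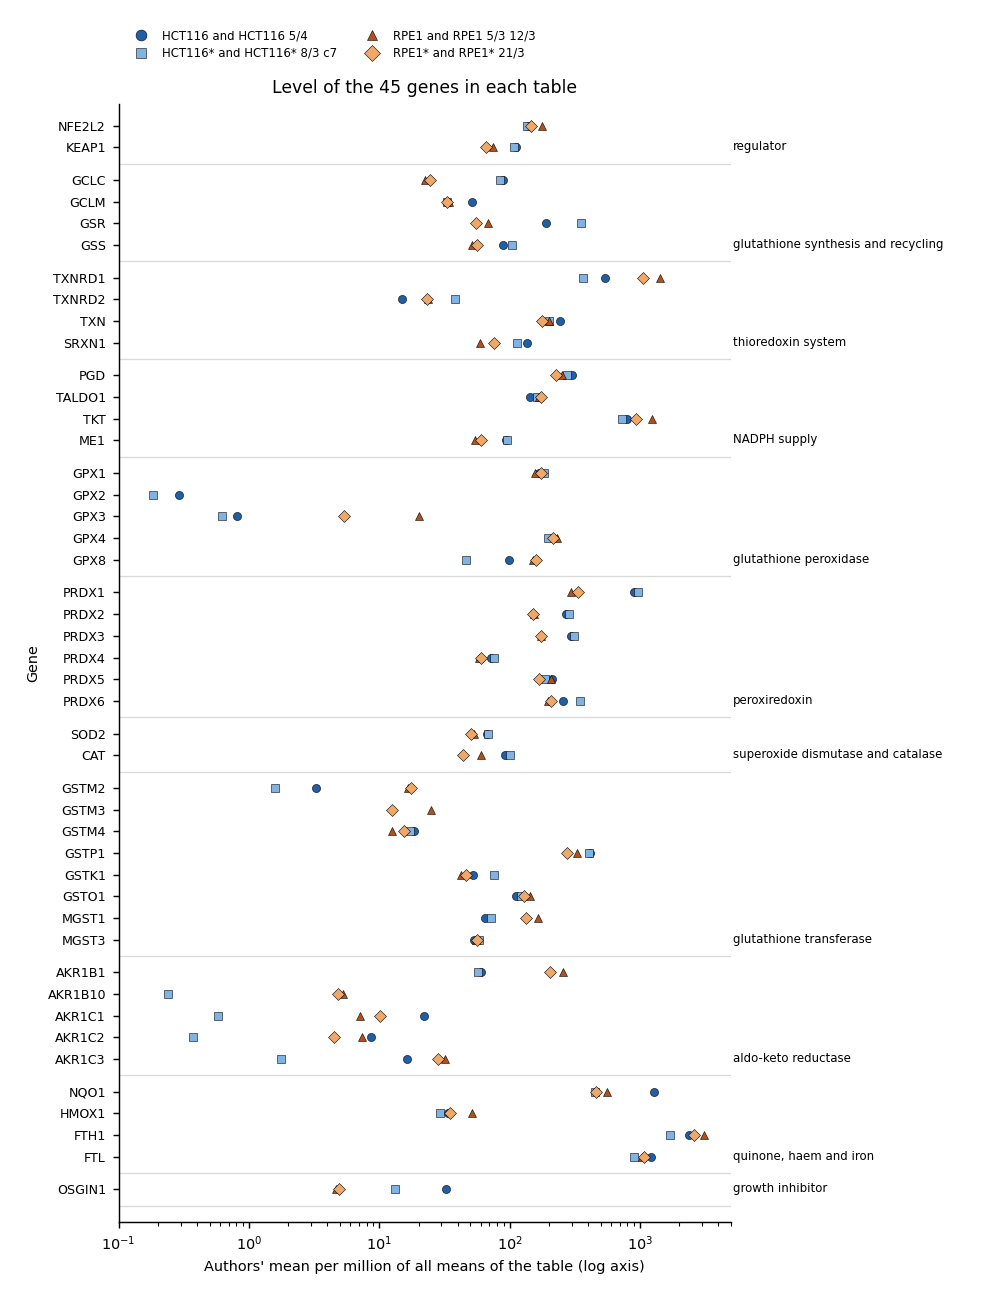
Level in ppm of each of the 45 genes (log axis) in the 4 tables, grouped by role, with 1 point per table in which the gene is listed and no error bars because each point is a mean over pooled libraries. The ferritins lie highest, and GPX3, AKR1B10 and the AKR1C genes show the widest spread between tables.

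Between the cell types, 3 of the 41 genes whose mean reached 10 in all 4 tables were higher in RPE1 and 4 were higher in HCT116 by a rule that asks the lower value of one cell type to be at least 2 times the higher value of the other. GPX3, GSTM2 and AKR1B1 met it in RPE1, where 7.56% of all 11939 genes did. GCLC, GSR, PRDX1 and OSGIN1 met it in HCT116, where 15.6% of all genes did. On this scale neither count exceeded the share of all genes that met the same rule, and 34 of the genes met it in neither direction. The median log2 ratio of RPE1 over HCT116 was -0.24 over the 41 genes and -0.35 over all genes. In bulk RNA, fewer cells that express a gene and less RNA of it per cell cannot be told apart.

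In ppm the median of all genes lay below 0, and it moved with the scale. What placed it there was not tested. Each ratio is therefore best read by its percentile among the ratios of all genes, which no scaling between tables alters. With the median of ratios as the scale the median of all genes was 0.02, a value that this scale sets near 0 by construction. With the upper quartile it was -0.17. With the median of ratios 6 of the genes met the rule in RPE1 and 4 in HCT116, against 11.1% and 9.29% of all genes. With the upper quartile 5 and 4 did so, against 8.98% and 12.2%. The additional genes in RPE1 were TXNRD1 and MGST1 under both scales and AKR1C3 under the median of ratios. The log2 ratios of GCLM, TXNRD2, TXN, PGD, GPX1, GSTM4, MGST3, PRDX4 and PRDX5 took the opposite sign under at least 1 of these scales, and no direction is given for these 9 genes. For GSTP1, GSTK1, PRDX6 and SOD2, whose levels in ppm were all higher in HCT116, the cell types overlapped under the median of ratios, and those of GSTK1 also under the upper quartile.

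Without a minimum fold, both RPE1 levels lay above both HCT116 levels for 13 of the 41 genes, against 25.9% of all genes, and below them for 19, against 56.6% of all genes. The levels of the remaining 9 overlapped. These counts were 18, 11 and 12 with the median of ratios, against 40.9% and 38.8% of all genes, and 15, 15 and 11 with the upper quartile, against 32.5% and 48.5%.

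**Figure D2:**
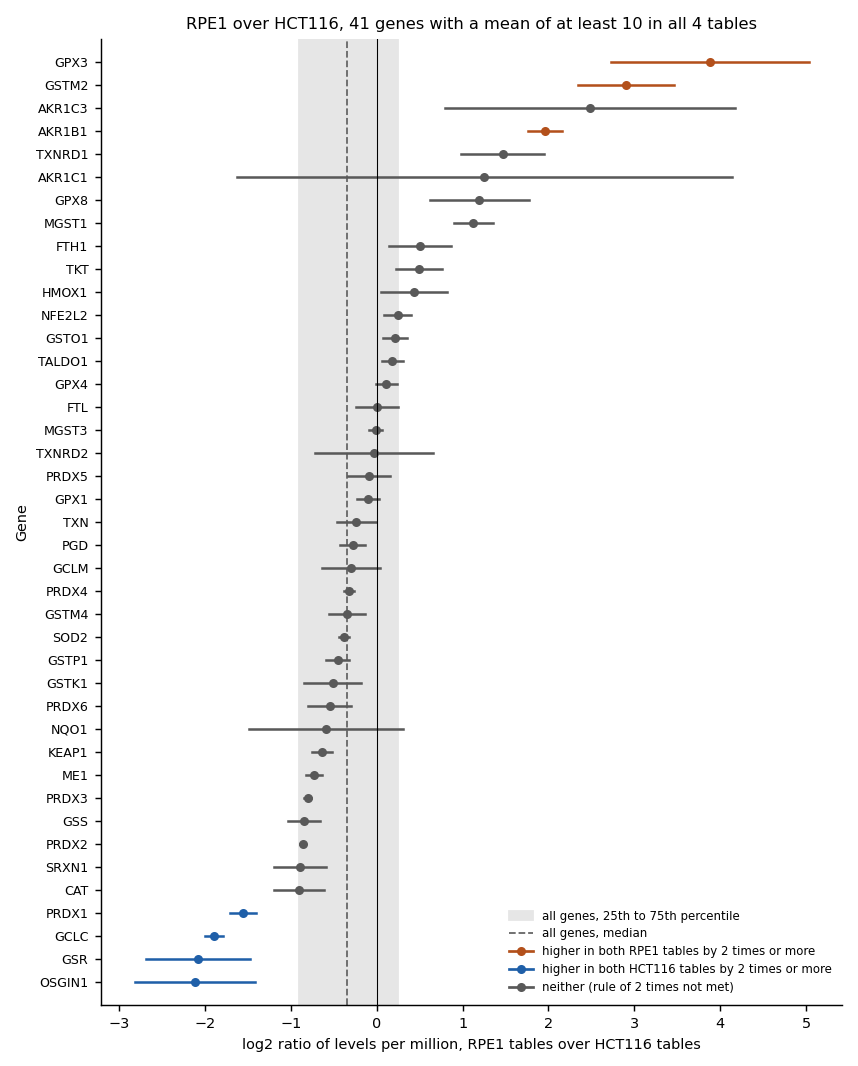
log2 ratio of the level in ppm in the RPE1 tables over the HCT116 tables for 41 genes, with the point at the ratio of geometric means and the line spanning the 4 ratios of single tables. The shaded band holds the middle 50% of all 11939 genes, from -0.90 to 0.25, and 3 coloured genes lie above it and 4 below it.

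The regulators differed by less than 2 times between the cell types. NFE2L2, the gene of NRF2 on chromosome 2, was at 138, 135, 178 and 147 ppm. KEAP1, its inhibitor on chromosome 19, was at 112, 107, 74.7 and 66.4 ppm. NFE2L2 was slightly above in RPE1, by 1.06 to 1.32 times over the 4 pairs of tables, and KEAP1 was below, with HCT116 higher by 1.43 to 1.69 times. Their ratios stood at percentile 74.8 and 35.7 of all genes. The ratio of NFE2L2 to KEAP1 in one table involves no scaling between tables, and it was 1.76 to 1.93 times higher in the RPE1 tables than in the HCT116 tables. Per length, its size depended on the length assigned to NFE2L2. It was 0.294, 0.301, 0.569 and 0.528 per length of merged exons and 1.29, 1.32, 2.5 and 2.32 per length of the MANE Select transcripts, so the order of these genes within a table is not settled.

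Glutathione is made from cysteine, glutamate and glycine by glutamate-cysteine ligase, with its catalytic subunit GCLC and its modifier subunit GCLM, and by glutathione synthetase, GSS. Glutathione reductase, GSR, returns the oxidized form to glutathione. GCLC, on chromosome 6, was at 89.4, 84.9, 22.3 and 24.5 ppm. Both HCT116 levels lay above both RPE1 levels, by 3.47 to 4.0 times, and the 2 tables of one cell type differed by less than 1.1 times. GCLM, on chromosome 1, was at 51.5, 33.2, 34.1 and 33.1 ppm, and its cell types overlapped. The ratio of GCLM to GCLC within a table was 2.35 to 3.91 times higher in RPE1. Its size per length depended on the length used. It was 0.915, 0.621, 2.43 and 2.15 per length of merged exons and 0.447, 0.303, 1.18 and 1.05 per length of the MANE Select transcripts.

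GSR, on chromosome 8, was at 191, 353, 68.6 and 54.7 ppm. It was 2.79 to 6.46 times higher in HCT116 than in RPE1, and its ratio stood at percentile 5.6. Of the HCT116 tables, the one with the chromosome 8 gain was 1.85 times higher than the other, and only 1.39% of all genes had a larger ratio of these 2 tables. GSS, on chromosome 20, was at 89.3, 105, 51.0 and 56.5 ppm, higher in HCT116 by 1.58 to 2.05 times.

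In the thioredoxin system, thioredoxin reductase passes electrons from NADPH to thioredoxin, TXN, and sulfiredoxin, SRXN1, repairs overoxidized peroxiredoxins. TXNRD1, the cytosolic reductase on chromosome 12, was at 535, 368, 1425 and 1055 ppm. Both RPE1 levels were higher, by 1.97 to 3.87 times, which placed TXNRD1 just under the rule of 2 times, with a ratio at percentile 93.5. Of the RPE1 tables the one with the chromosome 12 gain was 1.35 times higher. TXN, on chromosome 9, was at 242, 202, 200.4 and 176 ppm. The ratio of TXNRD1 to TXN within a table was 2.71 to 3.9 times higher in RPE1. The ratio of TXNRD1 to GSR, the reductases of the thioredoxin and the glutathione system, differed most of the 6 ratios of this kind that were formed after the values were seen. It was 1.5, 0.56, 11.1 and 10.3 per length, and 6.89 to 19.9 times higher in RPE1 than in HCT116. GSR exceeded TXNRD1 per length in the HCT116* 8/3 c7 table only, with merged exons, longest transcripts and MANE Select transcripts alike.

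SRXN1, on chromosome 20, was at 136, 114, 59.3 and 75.7 ppm, higher in HCT116 by 1.51 to 2.29 times. TXNRD2, the mitochondrial reductase on chromosome 22, was at 15.0, 38.1, 23.6 and 23.1 ppm. Its RPE1 levels lay between its HCT116 levels, which differed from each other by 2.55 times. TXNRD1 made up 97.8, 92.2, 98.7 and 98.2% of the 2 reductases per length.

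NADPH for both systems comes from the pentose phosphate pathway and malic enzyme. The genes of this group differed by less than 2 times between any RPE1 and HCT116 table. PGD, which forms NADPH in the oxidative branch, ranged from 226 to 303 ppm. TALDO1 and TKT, the transaldolase and transketolase of the other branch, were above in RPE1 by 1.04 to 1.24 and 1.17 to 1.7 times. ME1, cytosolic malic enzyme, was higher in HCT116 by 1.56 to 1.78 times.

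Glutathione peroxidases reduce peroxides with glutathione. GPX3, which encodes the secreted form, was at 0.815, 0.622, 20.3 and 5.4 ppm. Both RPE1 levels were higher, by 6.62 to 32.7 times, and this was the highest of the 41 ratios, at percentile 98.7. The authors' means behind it were low in HCT116, at 15.7, 12.5, 468 and 102 in the 4 tables. GPX3 lies on chromosome 5, and the RPE1 table with the chromosome 5 gain was 3.77 times higher than the other RPE1 table. In the HCT116 tables, of which one has 4 copies of that chromosome, the corresponding ratio was 1.31.

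GPX8, an endoplasmic reticulum form also on chromosome 5, was at 98.2, 46.4, 151 and 158 ppm. It was higher in RPE1 by 1.54 to 3.41 times, and the HCT116 5/4 table was 2.12 times above the HCT116* 8/3 c7 table. The RPE1 5/3 12/3 table, which also has a chromosome 5 gain, was not above the RPE1* 21/3 table for GPX8, at a ratio of 0.956. GPX4, which reduces lipid peroxides in membranes, and GPX1, the abundant cytosolic form, varied least within the family. GPX4 was at 215, 197, 232 and 213 and GPX1 at 169, 184, 157 and 173 ppm. Per length, GPX4 made up 45.0, 43.3, 45.0 and 41.8% of the family and GPX1 45.5, 52.0, 39.2 and 43.5%. GPX2, a form of the gut epithelium, was under a mean of 10 throughout. Its means were 5.63 and 3.67 in the HCT116 tables and it was not listed in the RPE1 tables.

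Peroxiredoxins reduce hydrogen peroxide with thioredoxin. PRDX1, on chromosome 1, was at 892, 971, 298 and 336 ppm. Both HCT116 levels were higher, by 2.66 to 3.26 times, and the tables of one cell type lay within 1.13 times of each other. The ratio stood at percentile 10.4. PRDX2, a cytosolic form, PRDX3, the mitochondrial form, and PRDX6, which uses glutathione, were higher in HCT116 by 1.78 to 1.86, 1.69 to 1.8 and 1.23 to 1.74 times. None of these 3 met the rule of 2 times. PRDX5, found in several compartments, was at 212, 187, 208 and 168 ppm and PRDX4, the form of the endoplasmic reticulum, at 72.2, 75.3, 57.8 and 60.0. Per length, the family summed to 1147 and 1215 ppm per kilobase in the HCT116 tables and to 662 and 643 in the RPE1 tables. PRDX1 took 46.2, 47.5, 26.7 and 31.0% of it and PRDX5 21.5, 17.9, 36.5 and 30.4%. PRDX1 thus had the larger share in both HCT116 tables, while in the RPE1 5/3 12/3 table the order of the pair turned between merged exons and MANE Select lengths.

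Manganese superoxide dismutase, SOD2, turns mitochondrial superoxide into hydrogen peroxide, which catalase, CAT, breaks down in peroxisomes. SOD2 was at 66.7, 68.5, 53.3 and 50.4 ppm and CAT at 92.5, 101, 60.6 and 44.2. Both were higher in both HCT116 tables, SOD2 by 1.25 to 1.36 and CAT by 1.53 to 2.28 times, at percentile 48.1 and 25.1 of all ratios. SOD2 stood near the median ratio of all genes.

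Glutathione transferases join glutathione to electrophiles. GSTP1, the pi class enzyme, made up 70.5, 67.6, 58.0 and 56.8% of the 8 genes per length and was at 416, 408, 326 and 277 ppm. GSTO1, of the omega class, came next with 20.0, 21.2, 26.7 and 27.6%. GSTM2, of the mu class on chromosome 1, was at 3.29, 1.59, 16.7 and 17.5 ppm and higher in RPE1 by 5.07 to 11.0 times, at percentile 97.9. Its 2 HCT116 levels differed by 2.08 times. GSTM3 was not listed in the HCT116 tables and was at 25.1 and 12.6 ppm in the RPE1 tables. GSTM4 was at 18.5, 17.2, 12.6 and 15.6 ppm. The mu class genes are close copies in 1 cluster, and the authors kept 1 location per read, so the split of reads among them is uncertain. The sum of GSTM2, GSTM3 and GSTM4 was 21.8, 18.7, 54.4 and 45.6 ppm, and with GSTM1, a further copy in the cluster, 22.9, 19.7, 75.6 and 68.0 ppm.

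MGST1, a microsomal transferase on chromosome 12, was at 65.0, 71.6, 166 and 133 ppm. It was higher in RPE1 by 1.86 to 2.56 times, at percentile 90.9, and the RPE1 table with the chromosome 12 gain was 1.25 times the other. Of the other transferases, GSTK1, of the kappa class, was higher in HCT116 by 1.13 to 1.8 times and GSTO1 higher in RPE1 by 1.05 to 1.28 times. MGST3, also microsomal, ranged only from 53.7 to 58.1 ppm over the 4 tables.

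**Figure D3:**
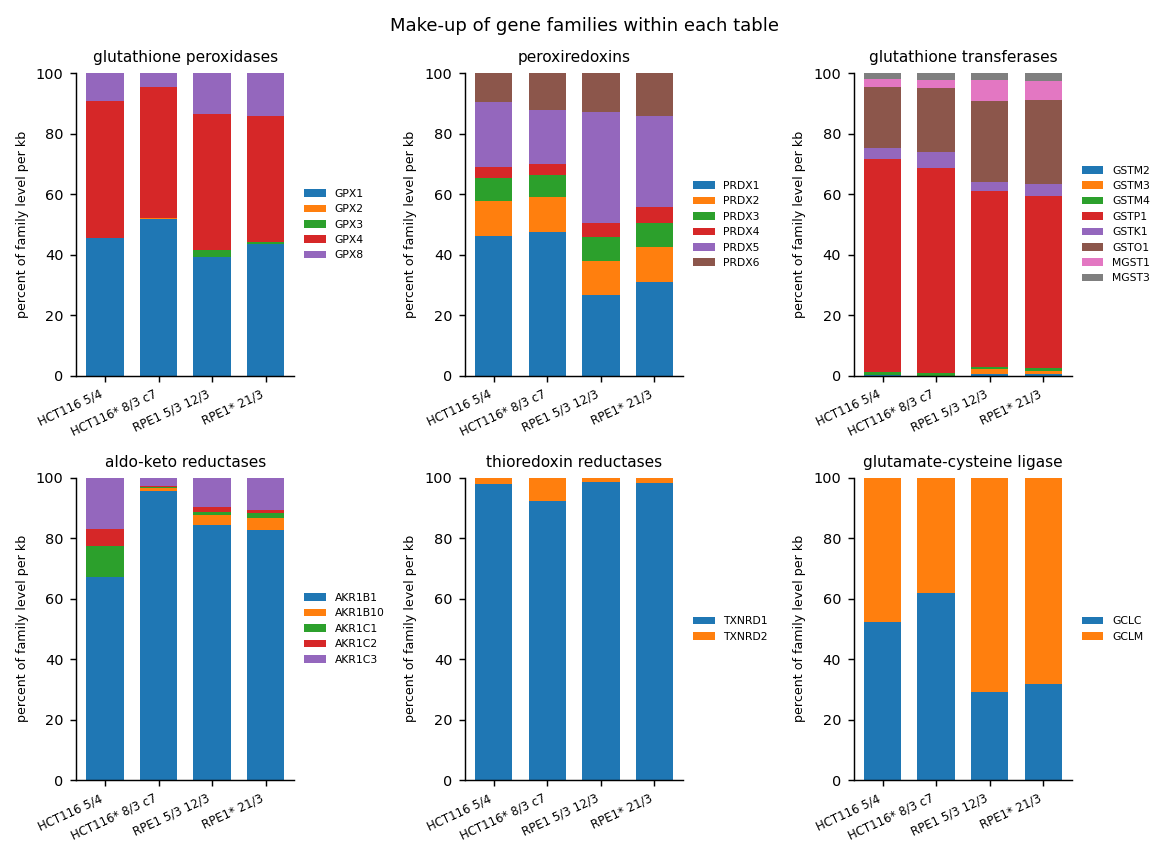
Percent of the level per kilobase of merged exons that each gene contributes to its family (vertical axis, from 0) in each of the 4 tables, for the glutathione peroxidases, peroxiredoxins, glutathione transferases, aldo-keto reductases, thioredoxin reductases and the subunits of glutamate-cysteine ligase. PRDX1 takes 46.2, 47.5, 26.7 and 31.0% of the peroxiredoxins and GCLC 52.2, 61.7, 29.2 and 31.8% of its 2 subunits, and both shares are lower in the RPE1 tables. The size of the GCLC share depends on the length used.

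Aldo-keto reductases reduce aldehydes and ketones with NADPH, and the AKR1C genes and AKR1B10 are well known NRF2 targets in human cells. AKR1B1, aldose reductase on chromosome 7, was at 60.5, 57.3, 255 and 206 ppm. Both RPE1 levels were higher, by 3.4 to 4.45 times, at percentile 95.7, and the 2 HCT116 levels lay within 1.06 times of each other. AKR1B10 was not listed in the HCT116 5/4 table. Its means were 4.83, 121 and 91.9 in the other 3, which was under 10 in the HCT116* 8/3 c7 table.

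The AKR1C cluster on chromosome 10 separated one HCT116 table from the other 3 tables. AKR1C1 was at 22.0, 0.574, 7.14 and 10.1 ppm and AKR1C3 at 16.3, 1.76, 31.8 and 28.3. AKR1C2 was at 8.65, 0.371, 7.34 and 4.5 ppm, with a mean of 7.45 in the HCT116* 8/3 c7 table. All 3 genes were lowest in that table. The HCT116 5/4 table was 38.3 times higher than it for AKR1C1, whose mean in the HCT116* 8/3 c7 table was only 11.5. None of the 11939 genes had a more extreme ratio in this direction. Genes under a mean of 10 or not listed in a table are not among these. For AKR1C3 the ratio was 9.27 times. AKR1C1 and AKR1C2 are near-identical and AKR1C3 is a less close relative, so the split of reads, above all between the first 2, is uncertain, but the sum of the 3 does not depend on it. The sum was 46.9, 2.7, 46.2 and 42.9 ppm, so the HCT116* 8/3 c7 table was 17.4 times below the HCT116 5/4 table while the RPE1 tables differed by 1.08 times.

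NQO1, a quinone reductase used widely as a readout of NRF2, was at 1290.1, 449, 557 and 460.2 ppm. The HCT116 5/4 table stood above the other 3, by 2.87 times over the other HCT116 table, and those 3 lay close together. HMOX1, haem oxygenase, was at 33.9, 29.2, 51.4 and 35.2 ppm and differed by less than 2 times between any 2 tables. FTH1, the ferritin heavy chain, was at 2361, 1699.7, 3088 and 2616 ppm and FTL, the light chain, at 1215, 904, 1031 and 1076. Both were lowest in the HCT116* 8/3 c7 table. The ratio of FTH1 to FTL was 1.25 to 1.59 times higher in RPE1, and reads of both can also match their many processed pseudogenes. OSGIN1, a growth inhibitor induced by oxidative stress, was at 32.6, 13.1, 4.63 and 4.91 ppm. Both HCT116 levels were higher, by 2.67 to 7.04 times, although they differed from each other by 2.49 times.

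Within a cell type, the HCT116 tables differed by 2 times or more for 7 of the 41 genes and the RPE1 tables for 1. AKR1C1, AKR1C3, NQO1, OSGIN1, GPX8 and GSTM2 were higher in the HCT116 5/4 table, a rule that 2.64% of all genes met. AKR1C1 and AKR1C3 are related copies in 1 cluster and are not independent of each other in this count. The ratio of GSTM2 rests on an uncertain split of reads, and the sum of GSTM2, GSTM3 and GSTM4 differed by only 1.16 times. TXNRD2 was higher in the HCT116* 8/3 c7 table, where 0.997% of all genes did so. GPX3 was higher in the RPE1 5/3 12/3 table, against 0.796% of all genes, and 0 of the 41 genes were higher in the RPE1* 21/3 table, against 1.21%. AKR1C1, AKR1C3, GPX8, NQO1 and TXNRD2 are named here after their values were seen. The median absolute log2 ratio of the 2 HCT116 tables was 0.18 over the 41 genes and 0.20 over all genes, and that of the 2 RPE1 tables was 0.16 and 0.16. Most of the genes thus lay as close together as genes at large, and a few in HCT116 lay far apart. Of the 8 genes, GPX3 and GPX8 lie on a gained chromosome of the table in which they were higher. The part of the gained chromosomes, the H2B-GFP transgene, the clone, the parental stock and the set of libraries in these ratios was not tested.

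**Figure D4:**
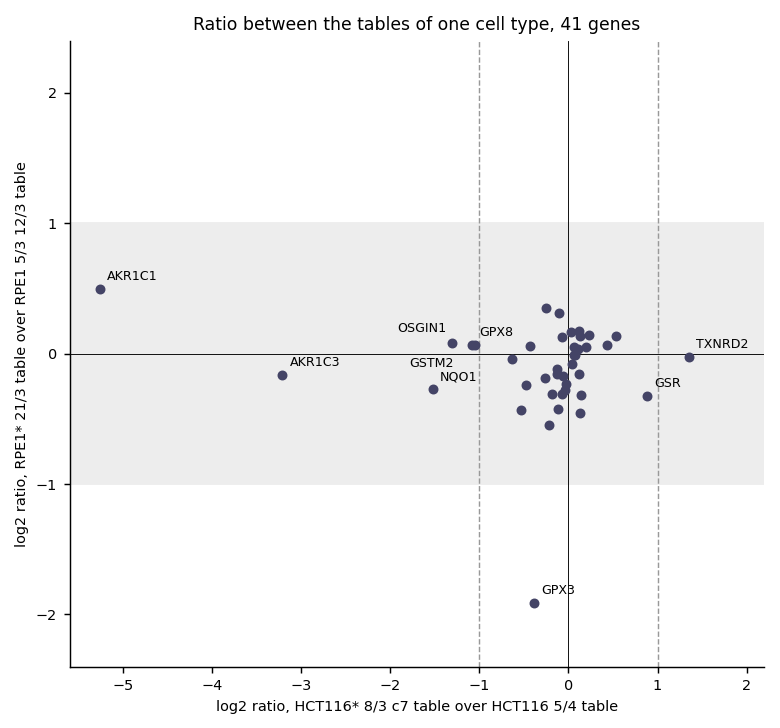
log2 ratio between the 2 tables of HCT116 (horizontal axis) and between the 2 tables of RPE1 (vertical axis) for 41 genes, 1 point per gene, with dashed lines and shading at a ratio of 2 in either direction. AKR1C1 lies farthest left at -5.26, TXNRD2 farthest right at 1.35, and GPX3 lowest at -1.91.

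Of 69 other genes of the pathway, 59 reached a mean of 10 in all 4 tables. Of these, 6 were higher in RPE1 and 7 in HCT116 by the rule of 2 times, against 7.56% and 15.6% of all genes. Their median log2 ratio was -0.23, against -0.35 over all genes. None of the 9 partners and regulators of NRF2, among them the small MAF genes, BACH1 and SQSTM1, met the rule in either direction. That rule compares the cell types only. Within HCT116, SQSTM1 was at 771 and 380 ppm, 2.03 times higher in the HCT116 5/4 table. The rule was met in HCT116 by 2 of 8 genes of cystine import and glutathione turnover, 2 of 7 other transferases and peroxidases, 1 of 7 genes of NADPH supply and 2 of 14 other targets. It was met in RPE1 by 2 of 7 other transferases and peroxidases, 2 of 13 genes of the thioredoxin and glutaredoxin system and 2 of 14 other targets.

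Genes not listed in a table had no ratio. Among them, TXNIP, ME3, CBR1 and SOD3 were listed in the RPE1 tables only, and OPLAH in the HCT116 tables only. TXNIP was at 66.0 and 62.2 and OPLAH at 27.5 and 34.3 ppm. NNT, of NADPH supply, was not listed in the HCT116* 8/3 c7 table. It was at 50.2 ppm in the HCT116 5/4 table and at 170 and 124 ppm in the RPE1 tables. ALDH3A1 was not listed in the RPE1* 21/3 table and was at 0.891, 1.08 and 13.1 ppm in the others. Among the 59 genes compared, the highest ratios were those of GSTM1, MSRB3 and CBR3. GSTM1, another mu class transferase, was at 1.14, 0.983, 21.25 and 22.4 ppm. MSRB3, a methionine sulfoxide reductase, was at 20.7, 23.3, 256 and 272 and CBR3, a carbonyl reductase, at 3.47, 1.11, 11.3 and 14.8. The lowest were those of ABCC2, GSTO2 and GGT1. ABCC2, an exporter of glutathione conjugates, was at 204, 419, 0.98 and 1.1 ppm, GSTO2 at 41.7, 60.8, 1.81 and 1.54 and GGT1, which cleaves extracellular glutathione, at 8.72, 7.94, 0.667 and 0.685. The HCT116 tables were 185 to 427 times higher for ABCC2, whose means in the RPE1 tables were low, at 22.6 and 20.9.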

How the data were processed

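The authors removed adapters with cutadapt, mapped single reads to hg19 with TopHat2 2.0.10 keeping 1 location per read, counted them on RefSeq exons with featureCounts 1.4.3 and normalized each table with DESeq2 (no version given in the sources used here). No strand option is named. The deposited signal is the authors' mean of normalized counts over 6 libraries. The other 5 columns of each table, apart from gene names, hold the authors' log2 fold changes, their standard errors, test statistics and p-values and were not used. The design foresaw edgeR on counts per library, which could not be run on these means.

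Means were scaled to 1000000 per table, and genes whose mean reached 10 in all 4 tables were compared with a fold of 2. The rules were tested on simulated data. Positions and exon lengths came from GENCODE on GRCh37, matched by symbol or older symbol for between 94.7 and 95.2% of listed genes. Values in every table were to be given for NFE2L2, KEAP1, genes that meet the rule of 2 times and genes under a mean of 10, and for the 3 highest and 3 lowest ratios of other pathway genes. The genes, lists and rules were chosen with earlier results of these data known. Alternatives were other scales, minimum means, folds, lengths and single pairs of tables. Python 3.11.15, numpy 2.4.6, pandas 2.3.3 and matplotlib 3.10.9 were used.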

Additional observations from a re-analysis of the deposited data

How the results depend on the processing

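The count of genes higher in RPE1 by the rule of 2 times, 3 (7.56% of all genes), became 6 (11.1%) with the median of ratios, 5 (8.98%) with the upper quartile, 1 (6.11%) with a mean of at least 100, 7 (12.2%) with a fold of 1.5, 5 (10.1%) with only the tables without H2B-GFP and 7 (11.6%) with only those with it. The count higher in HCT116, 4 (15.6%), became 10 (29.0%) with a fold of 1.5, 0 (4.25%) with a fold of 4 and 7 (22.4%) with only the tables without H2B-GFP. The mean of at least 100 removed GPX3, GSTM2 and, in HCT116, OSGIN1. The median log2 ratio of -0.24 (-0.35 over all genes) became 0.13 (0.02) with the median of ratios, -0.062 (-0.17) with the upper quartile and -0.14 (-0.35) with only the tables with H2B-GFP. The 7 genes apart between the HCT116 tables (3.64% of all genes) became 3 (2.11%) with a mean of at least 100 and 2 (0.687%) with a fold of 4, and the 1 gene apart between the RPE1 tables (2.0%) became 0 in both (0.725% and 0.419%). As a mean over the 4 tables, GPX4 made up 43.8% of its family per length of merged exons, 49.7% with longest transcripts and 52.8% with MANE Select transcripts. GSTP1 made up 63.2%, and 49.2, 54.6 and 48.3% with these lengths and with no division by length. FTH1 made up 49.7% of the ferritins, 62.1% with both other lengths and 69.3% without a length. TXNRD1 made up 96.7% of its family and 92.6% with MANE Select transcripts. Of 62 results under an alternative, 37 stayed within the spread between tables or, for counts, within 1.5 times. The cause of the other moves was not tested. MANE Select lengths were added after the data were seen.

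No paired analysis was possible because the values used are means over 6 libraries and carry no replicate numbers. For the same reason the count test of each aneuploid line against its parental line, its alternatives and the omission of each replicate were not run, and no p-value is given. Depth per library is unknown, and the lowest levels rest on means near 10.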

Other observations

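Of the 59 other pathway genes compared, 3 were at least 2 times higher in the HCT116 5/4 table and 2 in the HCT116* 8/3 c7 table, against 2.64% and 0.997% of all genes. None was so in the RPE1 5/3 12/3 table and 2 were in the RPE1* 21/3 table, against 0.796% and 1.21%. Of these genes, 3, named after their values were seen, belong to cystine import and glutathione turnover. The others were also named with their values known. They were SQSTM1 and CBR3, higher in the HCT116 5/4 table, and SESN3 and ABCC2, higher in the HCT116* 8/3 c7 table. SLC7A11, the cystine transporter subunit that feeds glutathione synthesis, was at 301, 58.2, 86.3 and 110.5 ppm, and the HCT116 5/4 table was 5.18 times above the HCT116* 8/3 c7 table. CHAC1, which degrades glutathione, was at 10.7, 6.09, 1.11 and 13.6 ppm, and the RPE1* 21/3 table was 12.2 times above the RPE1 5/3 12/3 table. SLC3A2, the partner chain of SLC7A11, was at 299, 259.9, 112 and 261 ppm, and the RPE1* 21/3 table was 2.33 times above the other. No test was made of these differences.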
